A study of Homo sapiens with 6 samples.

Results

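Replication-dependent histone genes are the genes that supply histones H1, H2A, H2B, H3 and H4 for the packaging of newly made DNA. They were taken from the table of gene counts by name, as every row whose identifier carries a symbol of the H1-1 to H1-6, H2AC, H2BC, H3C or H4C series or an older HIST symbol. The rule gave 63 of 27745 genes, 61 under current symbols and 2 under older ones that belong to H4C2 and H2AC18. They comprise 6 H1, 16 H2A, 16 H2B, 11 H3 and 14 H4 genes.

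The samples are RNA-seq libraries of MDA-MB-231, a cell line of triple-negative breast cancer, infected with lentivirus that carries a short hairpin RNA (shRNA). The control hairpin is sh-TRC (CTR1 and CTR2), and both knockdown hairpins, sh-MIR100HG-1 with samples KD1-1 and KD1-2, and its counterpart sh-MIR100HG-2 with samples KD2-1 and KD2-2, are directed at the long noncoding RNA MIR100HG. Each group holds 2 samples, 6 in all, and by the study's methods the cells were collected 72 h after infection. The study used these libraries to look for genes that respond to loss of MIR100HG. All the samples come from a single cell line, and all of them, controls included, were infected.

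Most histone protein is made in S phase, when DNA is copied. The genes for it lie in clusters, have no introns in their classical form, and give short messages that end in a conserved stem-loop instead of a poly(A) tail. The stem-loop is bound by SLBP, the stem-loop binding protein, while NPAT, a substrate of cyclin E and CDK2, switches the clusters on, and the U7 snRNP with LSM10 and LSM11 helps to cut the message. Some of these genes can also give longer, spliced or polyadenylated messages when cells stop dividing. H2AZ1, H3-3A and H3-3B belong to another kind, the replication-independent variants, which are expressed throughout the cycle as ordinary polyadenylated messages. H2AX, listed with them here, can give both a stem-loop message and a polyadenylated one.

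On GRCh37, the build of the files, 50 of the 63 genes lie on chromosome 6 between 25726360 and 27861621, 10 on chromosome 1 between 149754245 and 149859466, 2 on chromosome 1 between 228644680 and 228648171, and H4C16 on chromosome 12 between 14920933 and 14924065. A stem-loop of 16 bases, searched as a fully paired stem of 6 base pairs that opens with GG and closes a loop of 4 bases, was found within 150 bases after the stop codon in 61 of the 63, at a median of 35 bases from it, and was not found in H2AC11 or H2AC15. The stem-loops fall into 8 distinct sequences. The most frequent, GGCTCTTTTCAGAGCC, stands in 36 genes, and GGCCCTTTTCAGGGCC stands in 9. Printed as DNA are the stem-loops of the gene with the most reads in each class and of H2BC5, H2BC21 and H2BC4. They are shown with 5 flanking bases on each side, because this element sets where the classical message ends. Capitals mark the 16 bases of the stem-loop.
H1-2: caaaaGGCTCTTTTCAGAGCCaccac
H2AC6: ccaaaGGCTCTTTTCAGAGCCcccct
H2BC12: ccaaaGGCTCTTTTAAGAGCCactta
H2BC5: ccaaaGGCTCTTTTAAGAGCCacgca
H2BC21: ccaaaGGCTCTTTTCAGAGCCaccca
H2BC4: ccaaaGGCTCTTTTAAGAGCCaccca
H3C10: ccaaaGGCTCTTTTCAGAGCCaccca
H4C9: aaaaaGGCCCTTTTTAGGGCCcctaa

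Of these genes, H3C10 and H2BC21 share all 26 bases shown and differ in level by the values given further on. The stretch on which reads were counted also differs between genes. Whether the stem-loop or the counted stretch bears on the level was not tested. In H1-2 the counted interval ends 43 bases before the end of the stem-loop and in H2BC12 52 bases before it, so only the coding part was counted. In H2AC6 it runs to a point 14432 bases past the stem-loop, in H2BC5 12747, in H2BC4 8599, in H2BC11 6424 and in H2BC21 1729, introns included. Of the 61 genes with a stem-loop, 23 were counted more than 100 bases past it. Where counting stops earlier, a longer message can carry the counted stretch as well. The counts therefore cannot separate classical messages from longer messages in any of the 61 genes.

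Promoter windows of 300 bases, from 250 before the start of the gene to 50 after it, were available from RefSeq (GRCh38.p14) for 58 of the 63 genes, the first being used where a gene had several. Letters were searched on both strands. The octamer ATTTGCAT, the sequence that OCT1 binds in H2B promoters, was in 12 of 16 H2B windows (75.0%) and 11 of 15 H2A windows (73.3%), against 1.8% of all 27305 RefSeq windows. It was in 0 of 6 H1, 1 of 9 H3 and 0 of 12 H4 windows. The H3 match lies in a window listed for H3C4 that is the same stretch as the window of H2AC7, and the second window listed for H3C4 does not hold it. TATAAA was in 39 of the 58 (67.2%) against 11.95% of all windows, and CCAAT in 48 (82.8%) against 35.7%, with H4 apart at 2 of 12. The windows of H2AC6, H2BC12 and H4C9 follow, as the highest H2A, H2B and H4 genes. Capitals mark the octamer, TATAAA and CCAAT on either strand, and a run of capitals longer than a motif is an overlap of matches.
H2AC6 (GRCh38.p14, chr6:26123922-26124221, plus strand): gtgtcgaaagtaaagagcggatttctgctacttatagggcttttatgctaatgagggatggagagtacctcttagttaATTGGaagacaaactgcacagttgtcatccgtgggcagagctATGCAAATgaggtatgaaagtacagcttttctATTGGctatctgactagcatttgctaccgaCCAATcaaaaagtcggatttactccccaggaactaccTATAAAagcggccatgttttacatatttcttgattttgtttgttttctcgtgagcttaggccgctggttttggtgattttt
H2BC12 (GRCh38.p14, chr6:27146809-27147108, minus strand): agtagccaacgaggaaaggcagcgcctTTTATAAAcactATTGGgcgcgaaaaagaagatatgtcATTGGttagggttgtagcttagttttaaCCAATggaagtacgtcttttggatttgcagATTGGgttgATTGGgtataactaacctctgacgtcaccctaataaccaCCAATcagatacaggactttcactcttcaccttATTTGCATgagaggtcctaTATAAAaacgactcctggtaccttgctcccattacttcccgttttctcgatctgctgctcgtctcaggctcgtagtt
H4C9 (GRCh38.p14, chr6:27139032-27139331, plus strand): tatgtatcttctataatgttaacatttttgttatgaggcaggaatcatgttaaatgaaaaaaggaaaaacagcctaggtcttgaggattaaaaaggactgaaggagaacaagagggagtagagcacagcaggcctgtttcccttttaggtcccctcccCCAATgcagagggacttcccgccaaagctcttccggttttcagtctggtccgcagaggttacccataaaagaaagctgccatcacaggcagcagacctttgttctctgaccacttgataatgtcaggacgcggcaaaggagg

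The H2AC6 window holds the octamer, TATAAA and 3 CCAAT matches. H2BC12 holds the octamer, 3 TATAAA and 6 CCAAT matches, and H4C9 has 1 CCAAT match and neither of the others. The windows of 9 pairs of divergent H2A and H2B genes overlap, and in 4 of these pairs both genes were tested. A motif in the shared stretch counts for both genes, as with the octamer of H2AC6 and H2BC4. The H2A and H2B shares above are therefore not independent.

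Total counts per sample ran from 43804736 (KD1-2) to 64588388 (KD1-1). MIR100HG stood at 41.9 and 58.5 CPM, that is counts scaled to library size after TMM normalization, in the controls and between 10.4 and 16.6 CPM in the knockdown samples, with a log2FC of -1.86 (standard error 0.25, unadjusted p of 5.6e-05, adjusted p = 0.381). Markers of the cell line gave a mixed picture. VIM had at least 1607 CPM and EGFR at least 403 CPM in every sample, PGR had at most 0.0236 CPM and ESR1 at most 2.79, whereas ERBB2, whose protein is low in this class of tumour, had 71.6 to 116 CPM of RNA. LIN28B and NEFL, markers of other cells, had at most 0.0472 CPM, but NEFM, a further one, had 0.136 to 2.65 CPM with its highest value in KD1-1.

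Histone messages were a small part of these libraries. The 63 genes took 0.02% and 0.00968% of all counts in CTR1 and CTR2, 0.0124% and 0.0323% in KD1-1 and KD1-2, and 0.00964% and 0.0404% in KD2-1 and KD2-2. How the libraries treated RNA without a poly(A) tail is not given in the sources used here. No count was found in any sample for 16 genes, namely H1-1, H2AC1, H2AC7, H2AC8, H2AC15, H2AC16, H2AC17, H2BC9, H2BC10, H2BC26, H3C4, H3C7, H3C8, H4C4, H4C7 and H4C13. A count of 0 allows up to 3 counts per library, which is 0.0452 to 0.0708 CPM, and covers counting error only. If the mates of a read pair were counted separately, the limit is 6 counts, or 0.0904 to 0.142 CPM. In each of these 16, at least 85.1% of the 50-base stretches occur once in the genome. The exons of H2AC7, H2AC15, H2AC16, H2AC17 and H3C4 overlap those of another counted gene. How reads on shared bases were assigned is not given in the sources used here. For these genes a count of 0 can therefore miss reads. Another 15 genes had counts, at most 14 in a sample, but fell under the filter of at least 5 counts in at least 4 samples, among them H4C11, the gene in the middle of the 63 by mean count, with 0, 0, 4, 10, 10 and 14 counts in the order CTR1 to KD2-2. The filter left 32 genes (50.8% of the 63, against 55.4% of all genes in the table): 2 of 6 H1, 9 of 16 H2A, 11 of 16 H2B, 3 of 11 H3 and 7 of 14 H4.

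Levels were concentrated in a few genes. Only 15 of the 63 reached a mean of 1 CPM and 8 a mean of 5, and these 8 held 90% of the summed CPM. Within each class 1 gene led, as H1-2 held 95.1% of the CPM of the H1 genes, H2AC6 83.7% of H2A, H4C9 76% of H4, H3C10 58.4% of H3 and H2BC12 49.3% of H2B. The H3 genes together reached 0.617 to 2.52 CPM, the least of the 5 classes in every sample. Rows on H3C2 and H3C3 carry no symbol, are given at the end, and enter neither this sum nor the share of H3C10. Of the 50-base stretches of H3C14 and H3C15 0% are unique, and of those of H3C13 12.2%. On the scale of CPM per kilobase of counted length, the order of single genes was H2BC12 (129), H1-2 (78.2), H2BC5 (24.5), H4C9 (17.2) and H2AC6 (13.7), and the next were H2BC4 (9.47) and H2BC11 (7.87). The order among these depends on the counted length, which is 381 bases in H2BC12, where only 25.9% of 50-base stretches are unique, and 1668 in H2AC6.

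The summed level of the 63 genes was 187 and 96 CPM in CTR1 and CTR2, 120.4 and 334 in KD1-1 and KD1-2, and 97.9 and 427 in KD2-1 and KD2-2. KD1-2 and KD2-2, 1 sample of each knockdown hairpin, lay above all the others, and the other sample of each hairpin lay within the range of the controls. The means were 142 ± 64.6 CPM in the control, 227 ± 151 under sh-MIR100HG-1 and 262 ± 232 under sh-MIR100HG-2 (SD, n = 2 each). The spread within each knockdown group was larger than the distance between the group means. A lower level in such a sum can come from fewer cells that make the messages or from less message per cell, which bulk RNA cannot tell apart. Leaving out H1-2 and H2BC12, the highest genes, the sums were 106, 52.9, 58.4, 180.3, 55.9 and 214 CPM in the same order, so the pattern did not rest on these genes.

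**Figure D1:**
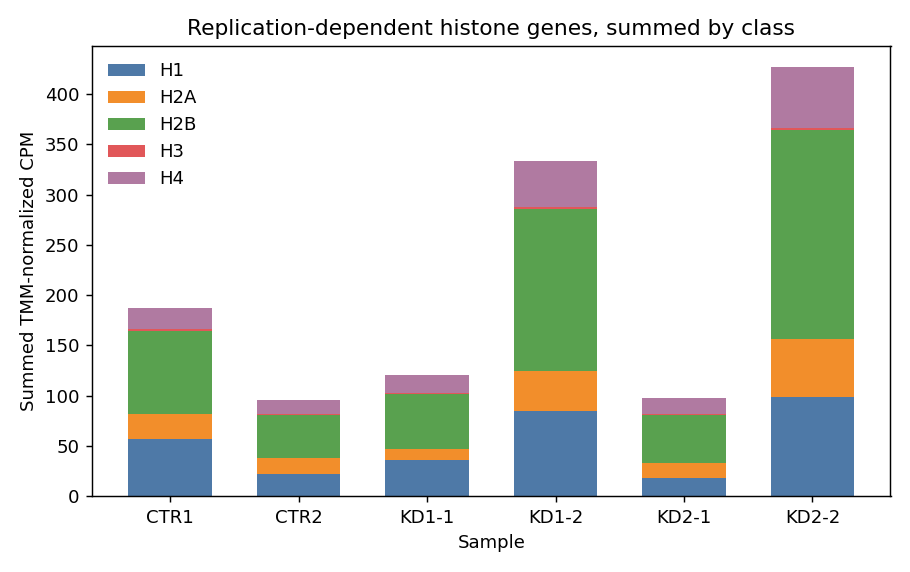
Bars give the summed TMM-normalized CPM of the 63 genes in each sample, stacked by histone class. KD2-2 (427 CPM) and KD1-2 (334 CPM) stand above the other samples, which lie between 96 and 187 CPM, and the H2B genes make up 47.3% of the whole.

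KD1-2 and KD2-2 were the 2 highest samples in each class. H1 genes summed to 84.7 CPM in KD1-2 and 98.9 in KD2-2, against 18.2 to 57.2 in the other 4 samples. H2B genes reached 161 and 208 CPM against 42.2 to 82.5, and H4 genes 46.1 and 60 CPM against 14.4 to 21.5. H2A genes reached 39.9 and 57 CPM against 11.1 to 24.9, and H3 genes 1.96 and 2.52 CPM against 0.617 to 1.25. KD1-2 and KD2-2 were the 2 highest samples in 15 of the 32 genes tested (46.9%), against 12.5% of all genes tested. Of the 32 genes tested, KD1-2 held the highest value in 13, KD2-2 in 13 and CTR1 in 6, and CTR2, KD1-1 and KD2-1 in 0. Among all genes tested, KD1-2 was highest in 19.4%, KD2-2 in 20.8% and CTR1 in 15.4%. The lowest value of the 32 fell in KD2-1 in 11, in CTR2 in 9, in KD1-1 and KD2-2 in 5 each, in CTR1 in 2 and in KD1-2 in 0. Among all genes tested, KD2-1 was lowest in 14.7%, CTR2 in 14.9% and KD1-1 in 12.1%. The shares were 24.4% for KD2-2, 14.2% for CTR1 and 19.6% for KD1-2.

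H1-2 (ENSG00000187837.3_1, chromosome 6, 26056015 to 26056656) encodes the linker histone with the most reads here. It had 53.5 and 20.7 CPM in CTR1 and CTR2, 33.6 and 81.2 in KD1-1 and KD1-2, and 16.6 and 95.7 in KD2-1 and KD2-2. The knockdown samples spanned both controls, from the lowest value to the highest. The log2FC of the knockdown, meaning the mean of both hairpins against control, was 0.61 (standard error 0.68, adjusted p = 0.873). H1-4, the next linker gene, stayed between 1.34 and 3.5 CPM, and H1-6, the lowest of the 3 named H1 genes and a testis gene, had at most 2 counts in the samples other than CTR1.

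H2BC12 (ENSG00000197903.7_1, chromosome 6, 27114197 to 27114577) encodes an H2B protein. Its values were 28.1 and 22.4 CPM in CTR1 and CTR2, 28.4 and 72.5 in KD1-1 and KD1-2, and 25.3 and 117 in KD2-1 and KD2-2. KD1-1 and KD2-1 lay beside the controls and the other knockdown samples far above them. The log2FC was 1.25 (standard error 0.60, unadjusted p of 0.0683, adjusted p = 0.671). It was 0.49 without KD2-2 and 0.08 without KD1-2 and KD2-2.

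H4C9 (ENSG00000276180.1_1, chromosome 6, 27106367 to 27107660) is the leading H4 gene. It had 12.8 and 9.79 CPM in the controls, 12 and 35.3 in KD1-1 and KD1-2, and 12.6 and 51.3 in KD2-1 and KD2-2, the same order of samples as H2BC12 at the top. The log2FC was 1.28 (standard error 0.60, unadjusted p of 0.0636, adjusted p = 0.668), 0.60 without KD2-2 and 0.12 without KD1-2 and KD2-2.

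H2BC5 and H2BC11 encode H2B as well and are counted over longer intervals. H2BC5 had 17, 10.4, 9.14, 32.6, 11.7 and 47.1 CPM from CTR1 to KD2-2, and H2BC11 had 4.23, 2.28, 1.7, 11, 2.25 and 23.4 CPM in that order. In both genes KD1-1 and KD2-1 lay within or below the range of the controls, and KD1-2 and KD2-2 above it. The log2FC was 0.86 (standard error 0.63) for H2BC5 and 1.47 (standard error 0.96) for H2BC11, with adjusted p-values of 0.793 and 0.756. Without KD2-2 these were 0.19 and 0.21. Without KD1-2 and KD2-2 both turned negative, to -0.41 and -0.74, as did H1-2, to -0.65.

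H2AC6 (ENSG00000180573.9_1, chromosome 6, 26124373 to 26139344) is the leading H2A gene, at 21 and 12.8 CPM in the controls, 7.41 and 32.6 in KD1-1 and KD1-2, and 12 and 51.7 in KD2-1 and KD2-2. KD1-1, the lowest, and KD2-2, the highest, differ 6.97-fold, and the controls lie between them. H2AC20, second per kilobase, had 1.01 and 1.26 CPM in the controls, 1.66 and 2.48 under sh-MIR100HG-1, and 1.48 and 1.74 under sh-MIR100HG-2. It is 1 of 2 tested members in which all 4 knockdown samples exceeded both controls, and its log2FC was 0.69 (standard error 0.40, adjusted p = 0.724).

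H3 and the remaining H4 genes had little RNA. H3C10, the highest H3 gene, had 0.633 and 0.578 CPM in the controls, 0.648 and 0.803 under sh-MIR100HG-1, and 0.353 and 1.96 under sh-MIR100HG-2, with both extremes in the last group. H3C12, whose exons overlap another row of the table, and H3C13 had 2 to 22 counts per sample, and their knockdown samples lay on both sides of the controls or among them. H4C3 (1.63 to 3.31 CPM) and H4C8 (1.19 to 4.65 CPM) also showed knockdown samples on either side of the controls. H2AC18, H4C12 and H4C14 passed the filter although 0% of their 50-base stretches are unique, so their counts depend on how reads with several matches were handled, which the sources used here do not say.

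**Figure D2:**
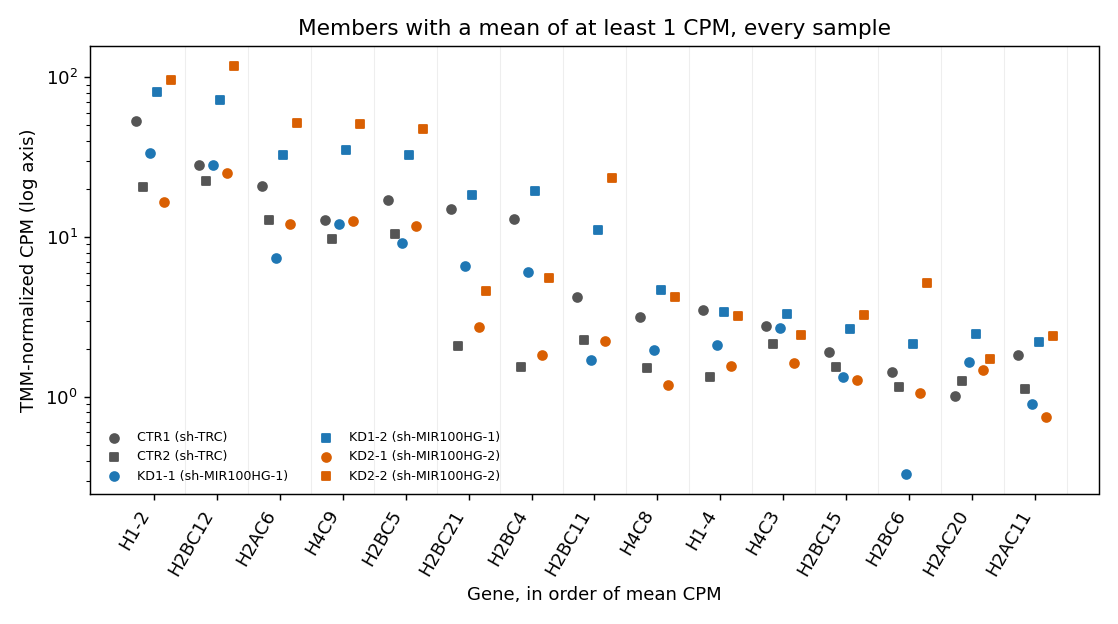
Points show the CPM of each sample (log axis) for the 15 members with a mean of at least 1 CPM, coloured by group, with circles for replicate 1 and squares for replicate 2. In H1-2, H2BC12, H2AC6, H4C9, H2BC5 and H2BC11 the blue and orange squares (KD1-2 and KD2-2) are the highest points, while in H2BC21 and H2BC4 CTR1 and KD1-2 are.

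H2BC21 and H2BC4 followed another order. H2BC21 (ENSG00000184678.10_1, chromosome 1, 149856009 to 149858202) had 15 and 2.07 CPM in the controls, 6.61 and 18.4 in KD1-1 and KD1-2, and 2.73 and 4.63 in KD2-1 and KD2-2. H2BC4 (ENSG00000180596.7_1, chromosome 6, 26115101 to 26124154) had 12.9, 1.53, 6.08, 19.4, 1.83 and 5.55 CPM in the same order. The controls of H2BC4 differ 8.46-fold and those of H2BC21 7.24-fold, more than the 2 samples of either hairpin do in these genes. Averaged over both hairpins, the log2FC was -0.07 for H2BC4 (standard error 0.80) and -0.33 for H2BC21 (standard error 0.69). Between the hairpins, as sh-MIR100HG-2 over sh-MIR100HG-1, it was -1.78 for H2BC4 (standard error 0.95, adjusted p = 0.561) and -1.76 for H2BC21 (standard error 0.83, adjusted p = 0.546), and both sh-MIR100HG-2 samples lay below both sh-MIR100HG-1 samples in each. With single samples left out the difference ran from -2.80 (without KD2-2) to -0.70 (without KD1-2) in H2BC4, and from -2.32 (without KD1-1) to -0.82 (without KD1-2) in H2BC21.

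**Figure D3:**
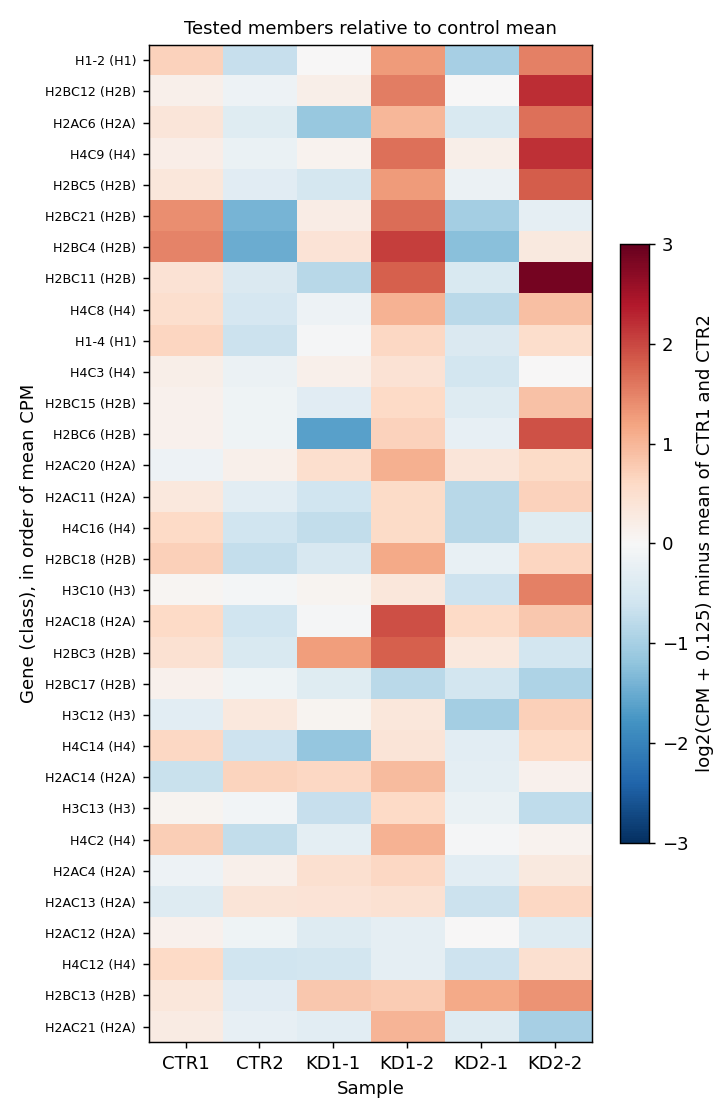
Colour gives log2(CPM + 0.125) minus the mean of CTR1 and CTR2 for the 32 tested members (rows, in order of mean CPM) in each sample (columns), red for higher and blue for lower. The columns of KD1-2 and KD2-2 are mostly red, with member medians of 0.86 and 0.61, and those of KD1-1 and KD2-1 mostly pale or blue, with medians of -0.10 and -0.38.

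H2AC6 and H2BC4 share 255 bases of their promoter windows, printed above for H2AC6, and are read in opposite directions from them. Yet the ratio of H2AC6 to H2BC4 in CPM was 1.62 in CTR1 and 8.39 in CTR2, 1.22 and 1.68 in KD1-1 and KD1-2, and 6.54 and 9.31 in KD2-1 and KD2-2. It was high in CTR2 and in both sh-MIR100HG-2 samples and low in the other 3. The other pairs with both genes tested were H2AC11 with H2BC11, H2AC20 with H2BC21, and H2AC13 with H2BC13. H2AC20 ranged from 1.01 to 2.48 CPM where H2BC21 ranged from 2.07 to 18.4, and H2AC11 from 0.75 to 2.4 where H2BC11 ranged from 1.7 to 23.4. Intervals counted for the pairs differ in length, so only the course across samples is compared here.

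**Figure D4:**
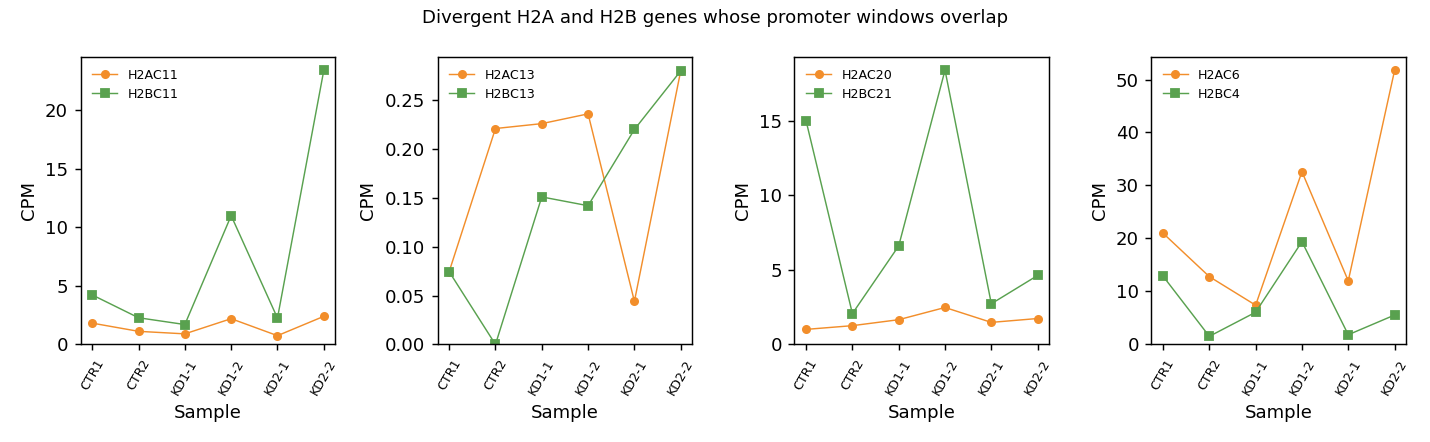
Each panel gives the CPM by sample (x axis) of an H2A gene (orange circles) and the divergent H2B gene whose promoter window overlaps with its own (green squares), with separate y axes from 0. H2BC4 peaks in KD1-2 (19.4 CPM) and H2AC6 in KD2-2 (51.7 CPM), and the H2AC13 and H2BC13 panel lies under 0.3 CPM.

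The comparison of knockdown with control asks whether histone messages follow the loss of MIR100HG. At an adjusted p at or below 0.05 in edgeR's quasi-likelihood test, 0 of the 32 members were called, and 0 of all 15372 genes tested (0%). At an unadjusted p under 0.05 there was 1 member of 32 (3.12%), against 7.68% of all genes tested. DESeq2 and edgeR's likelihood ratio test called 0 members and 130 and 109 genes in all. Without the filter on low counts, the quasi-likelihood test called 392 of 21349 genes (1.84%) and 3 of 47 members, H2BC11, H4C9 and H2BC12, with log2FC of 1.48, 1.28 and 1.25. The median log2FC of the 32 was 0.29, with 23 above 0 and 9 below, against a median of -0.04 over all genes tested. Without KD1-2 alone the median of the members was -0.04, without KD2-2 alone -0.14 and without both -0.62, so its sign rested on these libraries. They were picked for their high histone sums, so the fall follows in part from that choice. Without CTR1 the median was 0.91 and without CTR2 0.13. In 2 members (6.25%), H2AC20 and H2BC13, all 4 knockdown samples lay above both controls, against 8.4% of all genes tested, and in 1 (3.12%), H2BC17, all lay below, against 9.08%. For any single gene an exact permutation test of 4 against 2 samples cannot go below p = 0.0667.

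H2BC13 was the member at an unadjusted p under 0.05. It had 4 and 0 counts in the controls, 10 and 6 under sh-MIR100HG-1, and 10 and 14 under sh-MIR100HG-2, with a log2FC of 2.34 (standard error 0.98, unadjusted p of 0.0437, adjusted p = 0.642). No sample passed 0.28 CPM, and among all single values of 1 to 10 counts 69.9% were even numbers, against 51.1% of values of 1000 to 4000, so a step of 2 counts is the usual one at this level. Its log2FC was 6.35 without CTR1, which leaves the control at 0, and 1.34 without CTR2. Since both controls lay under 5 counts, H2BC13 passed the filter only through its 4 knockdown samples, so its p and its place above the controls follow in part from the filter. H2BC17 had 23 and 20 counts in the controls and 7 to 18 in the knockdown samples (log2FC -0.94, standard error 0.54, adjusted p = 0.720).

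**Figure D5:**
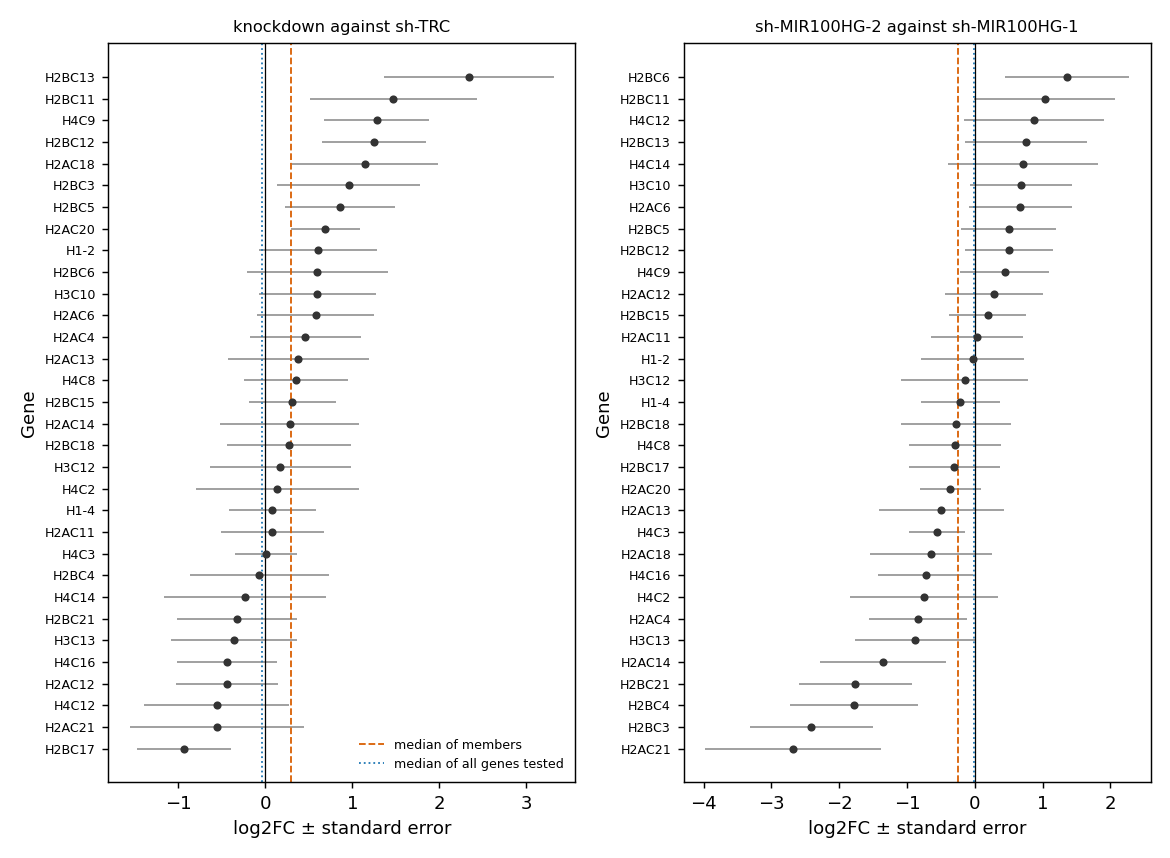
Points give the log2FC and bars the standard error of each of the 32 tested members, left for both knockdown hairpins against control and right for the difference between the hairpins (sh-MIR100HG-2 over sh-MIR100HG-1). The dashed line is the median of the members (0.29 left, -0.24 right) and the dotted line that of all genes tested (-0.04 and -0.01).

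Taken singly, neither hairpin gave a call. With sh-MIR100HG-1, 0 members and 0 genes (0%) passed the adjusted p, and 1 member, H2BC3, an H2B gene, passed the unadjusted one against 6.87% of all genes. With sh-MIR100HG-2, 0 members and 0 genes (0%) passed the adjusted p, and 1 member, again H2BC13, the unadjusted one against 8.86%. The members' median log2FC was 0.51 under sh-MIR100HG-1 and 0.11 under sh-MIR100HG-2. Without their second replicates the medians were -0.31 and -0.61. Both comparisons use the same 2 controls. DESeq2 and the likelihood ratio test called 0 members for either hairpin, and without the filter on low counts the quasi-likelihood test called 0 members and 227 of 21349 genes (1.06%) under sh-MIR100HG-1, and 6 members (5 higher and 1 lower) and 517 genes (2.42%) under sh-MIR100HG-2.

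Between the hairpins (sh-MIR100HG-2 over sh-MIR100HG-1), 0 members and 0 genes (0%) passed the adjusted p, and 1 member, H2BC3, the unadjusted one against 9.45% of all genes. H2BC3 had 11 and 3 counts in CTR1 and CTR2, 30 in both KD1-1 and KD1-2, 8 in KD2-1 and 2 in KD2-2. Both sh-MIR100HG-1 samples lay above all the others. The log2FC was -2.41 (standard error 0.91, unadjusted p of 0.0277, adjusted p = 0.509), and it ran from -3.77 without KD2-1 to -1.69 without KD2-2. The median of the members was -0.24, with 13 above 0 and 19 below, against -0.01 over all genes tested, and it rose to 0.60 without KD1-2 and to 0.24 without KD2-1. DESeq2 and the likelihood ratio test called 0 members here as well, and the quasi-likelihood test without the filter on low counts called H2BC21 and H2BC4 among 679 of 21349 genes (3.18%).

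The spread between samples of 1 group was wide in these genes. The standard deviation of log2 CPM within groups, pooled over the 3 groups, had a median of 0.79 over the 32 members and 0.30 over all 15372 genes tested. Of the 9508 genes with a mean of at least 10 CPM, whose median was 0.24, 5 are members. Among these 5, the share of the 9508 genes with a larger spread was 0.231% for H1-2, 0.252% for H2AC6, 0.4% for H2BC5, 0.61% for H2BC12 and 0.684% for H4C9. H4C3 (0.29), H2AC20 (0.27) and H2AC12 (0.20) had spreads near the median of all genes. In total counts, KD1-2 had the fewest of the 6 and KD2-2 had 52814374, between KD1-2 and KD1-1. The most were in KD1-1 (64588388) and CTR2 (58410375), which had low histone sums. A relation between total counts and histone level was not tested.

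The replication-independent variants named here varied less between samples than the leading replication-dependent genes did. All 11 listed genes were tested and 0 had an unadjusted p under 0.05 after knockdown, against 7.68% of all genes tested. The median log2FC of the 11 was 0.16, with 10 above 0 and 1 below. KD1-2 and KD2-2 were the 2 highest samples in 2 of the 11 (18.2%), H3-3A among them, against 12.5% of all genes tested. H2AZ1, the variant H2A.Z, ranged from 291 to 370.1 CPM, and H3-3B, which encodes H3.3, from 543 to 764 CPM. H3-3A, the other H3.3 gene, ranged from 69.3 to 94.8 CPM and H2AX, the variant that marks DNA breaks, from 120.0 to 244. Relative to the controls, the median variant was at 0.05 and 0.12 on the log2 scale in KD1-1 and KD1-2 and at 0.14 and 0.28 in KD2-1 and KD2-2, where the replication-dependent genes were at -0.10, 0.86, -0.38 and 0.61.

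Among the factors that make and process histone messages, SLBP, NPAT and LSM11 did not have KD1-2 and KD2-2 together as their 2 highest samples. KD1-2 alone was the highest sample of NPAT. SLBP had 82.6 and 91.6 CPM in the controls, 96.7 and 76.6 under sh-MIR100HG-1, and 91 and 73.4 under sh-MIR100HG-2, lowest in the samples with the most histone RNA. NPAT had 43.2, 27.6, 38.4, 58.7, 32.3 and 33.1 CPM from CTR1 to KD2-2. Of 24 listed genes of transcription and processing, all tested, 1 had an unadjusted p under 0.05 after knockdown, against 7.68% of all genes tested. This was LSM11, the U7 snRNP subunit, with 7.78 and 16.8 CPM in the controls, 15.6 and 18.4 under sh-MIR100HG-1, and 32.1 and 30.3 under sh-MIR100HG-2 (log2FC 0.90, standard error 0.32, unadjusted p of 0.0213, adjusted p = 0.582). Its log2FC was 0.45 without CTR1 and 1.57 without CTR2. The list had 14 genes above 0 and 10 below, with a median of 0.12. KD1-2 and KD2-2 were the 2 highest samples in 3 of the 24 (12.5%), among them the kinase CDK2, at 102, 98.2, 101, 147, 94.4 and 133 CPM from CTR1 to KD2-2, and its partner cyclin E, from CCNE1, at 11.5, 15.5, 15.5, 24.5, 14.6 and 26.6 CPM.

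Of 18 listed histone chaperones and their partners, 1 had an unadjusted p under 0.05 after knockdown, against 7.68% of all genes tested. UBN1, a subunit of the HIRA complex that deposits H3.3, had 85.2 and 109.7 CPM in the controls, 115 and 136 under sh-MIR100HG-1, and 142 and 171 under sh-MIR100HG-2, all 4 knockdown samples above both controls (log2FC 0.52, standard error 0.20, unadjusted p of 0.0322, adjusted p = 0.626). Of 43 S-phase genes, 4 had an unadjusted p under 0.05, all higher, against 7.68% of all genes tested in either direction. They were CDC6 and GMNN, which govern the licensing of replication origins, DTL and FEN1. DTL guides the destruction of CDT1, and FEN1 is a nuclease of lagging-strand synthesis. Of the 43, 0 passed the adjusted p, and over the list 24 were above 0 and 19 below. Relative to the controls, the median S-phase gene was at 0.17 in KD1-1 and 0.20 in KD1-2, and at -0.07 in KD2-1 and -0.19 in KD2-2, so the samples of 1 hairpin lay 0.03 and 0.12 apart where the replication-dependent genes lay 0.96 and 0.99 apart on the log2 scale. Single S-phase genes did share the order, as KD1-2 and KD2-2 were the 2 highest samples in 8 of the 43 (18.6%), against 12.5% of all genes tested. CDC6 was 1 of these, with 79.9, 63, 101, 147, 76.2 and 115 CPM from CTR1 to KD2-2. The part of these factors in the histone levels was not tested.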

How the data were processed

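RNA from 6 samples of MDA-MB-231 was sequenced, 2 per group. The authors deposited raw counts per gene without normalization: they mapped reads to GRCh37 with STAR (2.5.2a by the submitters' processing notes) and the GENCODE annotation, and assigned them to exons with FeatureCounts. The deposited table's length column, of unit bases, gave CPM per kilobase. Strand setting, handling of multiply mapped reads and RNA selection are not given in the sources used here.

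After the filter in the methods, 12373 genes that fell under 5 counts in 3 or more samples were dropped, leaving 15372. Counts were normalized by TMM and tested with edgeR 4.0.16 in R 4.3.3 (glmQLFit and glmQLFTest, 3 residual degrees of freedom, common biological coefficient of variation 27.8%), with Benjamini-Hochberg adjustment over all genes tested and a threshold of 0.05. The standard error is the log2FC divided by the square root of F. Values on the log2 scale use a pseudocount of 0.125 CPM. Alternatives were DESeq2 1.42.0, edgeR's likelihood ratio test, RLE factors, library size alone, other filters, a replicate block, each sample left out, and wider memberships. The alternative without KD1-2 and KD2-2, the crossed block and membership by position were added after the data were seen.

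Genes named are MIR100HG; in each class the 3 members with the highest CPM per kilobase; members at an unadjusted p under 0.05 after knockdown or between the hairpins; SLBP, NPAT, H2AX, H2AZ1, H3-3A and H3-3B; other genes of the background lists at that p after knockdown; the member of median mean count; and those with 0 counts throughout. Another gene that the rule named is not reported here. H2BC21, H2BC11, H2BC17, CDK2, CCNE1, NEFM, MALAT1 and NEAT1 were named after their values were seen. Members and lists were chosen with earlier results of these data known. The S-phase list is that of Seurat 5.3.0. The study calls the knockdown samples biological replicates. The quasi-likelihood p-values set the group difference against the spread between 2 samples per group. That spread is pooled over the 3 groups and drawn towards that of all genes tested (prior degrees of freedom 5.37). Of the identifiers, 26966 had a symbol and 779 did not, of which 4 lie on histone genes by position and were used only as an alternative. Stem-loops and promoters were read from the GRCh37 genome and RefSeq.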

Additional observations from a re-analysis of the deposited data

How the results depend on the processing

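With 2 samples per group and most members under 1 CPM, depth and replicate spread limit every comparison above. At the adjusted p, 0 members were called under each alternative except without the filter on low counts, where 47 were tested and 3 were called after knockdown (H2BC11, H4C9 and H2BC12, all higher), 6 under sh-MIR100HG-2 (5 higher, 1 lower) and 2 between the hairpins (H2BC21 and H2BC4, lower). The cause was not tested. The counts at an unadjusted p under 0.05, 1 member in each comparison, became for knockdown, sh-MIR100HG-1, sh-MIR100HG-2 and between hairpins 7, 7, 11 and 6 without the filter, and 3, 2, 3 and 3 with the likelihood ratio test. They became 3 for sh-MIR100HG-2 with RLE factors, 2 for it with filterByExpr, 0 for knockdown with library size alone, and 3 for either hairpin without KD1-2 and KD2-2. With each sample left out in turn they ran from 0 to 5, 0 to 4, 0 to 10 and 3 to 6, and the median log2FC from -0.14 to 0.91, -0.31 to 0.99, -0.61 to 0.92 and -0.90 to 0.60. Without KD1-2 and KD2-2 together the medians were -0.62, -0.31 and -0.61 against control, and H2BC11, H2BC5 and H1-2 turned to -0.74, -0.41 and -0.65. The median under sh-MIR100HG-2, 0.11, was -0.07 without CTR2 and -0.08 with the replicate block. With single samples left out H1-2 ran from -0.27 to 1.46. Members with knockdown samples all beyond both controls, 3 in all, became 5 without the filter, 11 without KD1-2 and KD2-2, and 3 to 11 with 1 sample left out. A lack of overlap is more frequent when fewer samples are compared. Shares over all genes under these alternatives are not given here. Neither these counts nor those at an unadjusted p are therefore read as a result about the members.

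Replicate numbers were not taken to pair the samples, since not every correlation of same-numbered samples' deviations across genes exceeded 0.1: they were -0.213 (control and sh-MIR100HG-1), 0.0219 (control and sh-MIR100HG-2) and 0.497 (between the hairpins), whose same-numbered samples deviated together. With that replicate block, 0 members had an unadjusted p under 0.05 after knockdown, and 0 an adjusted p at or below 0.05. When the numbers of the controls were crossed, the former were 3, 2, 4 and 4.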

Other observations

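A split of the samples seen in H2BC21 and H2BC4 was also found in the nuclear long noncoding RNAs MALAT1 and NEAT1. Both were looked up after these values had been seen. MALAT1 had 1617 and 304 CPM in CTR1 and CTR2, 994 and 1555 in KD1-1 and KD1-2, and 191 and 350.1 in KD2-1 and KD2-2. NEAT1 had 652, 141, 843, 647, 127 and 129.7 CPM in the same order. In both RNAs, as in H2BC21 and H2BC4, CTR1, KD1-1 and KD1-2 lay above CTR2, KD2-1 and KD2-2. The highest sample differed, being KD1-2 in H2BC21 and H2BC4, CTR1 in MALAT1 and KD1-1 in NEAT1. The split is not particular to these RNAs, since ATRX, HELLS and USP1 of the chaperone and S-phase lists showed it too. Its share over all genes is not given here. H1-2, H2BC12, H4C9, H2BC5 and H2BC11 did not follow this split, since KD2-2 was their highest sample. The relation was not tested.

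Rows without a symbol that lie on H3C2 and H3C3 had more reads than most named H3 genes. The row on H3C2 had 0.335, 0.646, 0.753, 1.2, 0.353 and 0.759 CPM from CTR1 to KD2-2, and the row on H3C3 had 0.298, 0.425, 0.452, 0.614, 0.507 and 0.759 CPM. KD1-2 and KD2-2 were the 2 highest samples in both, in H3C2 by 0.759 against 0.753 CPM in KD1-1.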
